A study of Mus musculus with 67 samples.

Results

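The Iroquois homeobox (Irx) genes were followed in 14 RNA-seq libraries of mouse forelimb buds. The family was taken by gene name as Irx1, Irx2, Irx3, Irx4, Irx5 and Irx6, which are 6 of the 46983 gene identifiers in the tables, and all 6 were found in every library. The study compared wild-type (WT) Swiss Webster embryos with Gli3-/- embryos, which lack the GLI3 transcription factor of the Hedgehog (HH) pathway, before and after HH signaling begins in the limb. The 4 groups were E9.25 WT (3 libraries) and E9.25 Gli3-/- (4 libraries), from whole forelimb buds at 21 to 23 somites, and anterior E10.5 WT (4 libraries) and anterior E10.5 Gli3-/- (3 libraries), from the anterior part of the forelimb bud at 32 to 35 somites. Per the labels, about 4 pairs of buds were pooled for an E9.25 library and 2 pairs of anterior parts for an E10.5 library, so every value is an average over embryos. The null allele was Xt-J, a deletion of part of the gene, maintained on the Swiss Webster background. A comparison of E10.5 with E9.25 is therefore also one of an anterior part with a whole bud, and these cannot be told apart.

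IRX proteins are transcription factors of the TALE class of homeodomain proteins, which also holds the MEIS, PBX, PKNOX and TGIF factors. In mammals their genes lie in a pair of clusters, IrxA with Irx1, Irx2 and Irx4, and IrxB with Irx3, Irx5 and Irx6. Genes of a cluster are often transcribed in the same tissues, and they are known for roles in neural tube patterning, in the heart and in the limb. Irx3 and Irx5 are known from mouse mutants for acting together in the early limb bud on anterior and proximal skeletal elements.

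Levels are given as TPM, a measure of transcript abundance that allows for transcript length and library size, and differences are given on the log2(TPM + 1) scale. Genes that reached 1 TPM in 3 or more libraries of a comparison were tested. "Rose" and "fell" mean a limma p under 0.05 after Benjamini-Hochberg adjustment over all genes tested. Depth was estimated from read coverage at 38.1 to 56.8 M reads per library, so that a TPM of 1 stood for 20.7 to 29.3 reads per kilobase of transcript. Gli3, which checks the labels, was listed at 44.2, 15.8 and 44.6 TPM in E9.25 WT and at 14.3 to 20.8 TPM in E9.25 Gli3-/-. At E10.5 it was at 73.4 to 89.7 TPM in WT and at 38.7 to 40.9 TPM in Gli3-/-. The library labelled E9.25 WT replicate 2 thus lay inside the mutant range on TPM. When read coverage was put on the same scale, it stood at 5.33 against 1.85 to 2.70 in the 4 mutant libraries and 15.0 and 15.1 in the other WT libraries, so it lay between the genotypes. For Irx1 to Irx5, the genotype, ratio and WT stage differences that use it are also given with it left out. All 9 limb mesenchyme markers, including Prrx1 and Tbx5, were at 1 TPM or more in every library. Of the other markers, those of flank and lateral plate mesoderm summed to 25.2 to 62.1 TPM in E9.25 WT and 80.3 to 221 TPM in E9.25 Gli3-/-, and to 1.71 to 4.10 TPM in all E10.5 libraries.

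The IrxA genes lie on chromosome 13 in the mm10 build, Irx1 at chr13:71957921-71963723 on the minus strand, Irx2 at chr13:72628820-72634198 and Irx4 at chr13:73260479-73269608, both on the plus strand. They are spaced by 665 kb and 626 kb. Irx1 begins 56.2 Mb from Gli3, which is on the same chromosome. The IrxB genes lie on chromosome 8, Irx3 at chr8:91798525-91801916 on the minus strand, Irx5 at chr8:92357796-92361456 and Irx6 at chr8:92674288-92680956, both on the plus strand. A gap of 556 kb separates Irx3 from Irx5 and one of 313 kb separates Irx5 from Irx6. A pair of long noncoding RNAs runs against the IrxB genes. Irx3os, on the plus strand, overlaps Irx3 by 1502 bases, and Crnde, on the minus strand, begins 1.68 kb from the start of Irx5.

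The bases just before the transcript starts are shown for genes of both clusters because genes of both clusters were lower in the E10.5 mutants. They come from RefSeq (GRCm38.p6), matched for 3 of the 6 genes (Irx2, Irx3, Irx4) and for Crnde. Each run is written in the direction of its gene, with every CG in capitals. The RefSeq start of Irx3 lies 262 bases inside the span the tables list, so of its window (chr8:91801655-91801904, minus strand) only the 30 bases next to the start are shown. The other runs are chr13:72628570-72628819 (plus strand), chr13:73260247-73260496 (plus strand) and chr8:92356121-92356370 (minus strand). The runs of Irx2 and Irx4 lie inside the gene spans that RefSeq lists, which begin further upstream at chr13:72624430 and chr13:73259589.
Irx2: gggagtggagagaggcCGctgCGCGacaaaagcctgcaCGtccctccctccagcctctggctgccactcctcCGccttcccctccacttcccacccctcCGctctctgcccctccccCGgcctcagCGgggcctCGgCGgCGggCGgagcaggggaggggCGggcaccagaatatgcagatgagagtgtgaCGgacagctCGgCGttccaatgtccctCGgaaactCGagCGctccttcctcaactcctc
Irx4: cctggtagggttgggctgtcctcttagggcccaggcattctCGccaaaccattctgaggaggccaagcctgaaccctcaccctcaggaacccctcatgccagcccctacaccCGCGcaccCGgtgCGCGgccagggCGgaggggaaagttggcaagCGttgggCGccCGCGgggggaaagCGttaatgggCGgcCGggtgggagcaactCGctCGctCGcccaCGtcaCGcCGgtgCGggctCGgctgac
Irx3: tggggtgaggggggaCGcagCGaggggagg
Crnde: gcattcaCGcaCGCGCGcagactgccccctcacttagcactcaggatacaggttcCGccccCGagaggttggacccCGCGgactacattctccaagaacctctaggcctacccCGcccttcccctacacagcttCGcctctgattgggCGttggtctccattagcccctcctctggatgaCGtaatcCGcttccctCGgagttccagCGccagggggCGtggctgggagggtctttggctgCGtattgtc
In 250 bases the Irx4 window held 22 CG and the Irx2 window 19, which 14.8% and 19.7% of all 32817 RefSeq windows of this length matched or exceeded. The Crnde window, which faces Irx5, held 17 (23.5% of windows) and the Irx3 window 13 (31.5%). The median over all windows was 6. None of these 4 windows held, on either strand, the letters GACCACCCA (the GLI consensus), CCACCCA (its core, so a match to the longer run is also one to it), ACATGT (an IRX consensus), TGACAG (bound by TALE factors) or TATAAA. Those letters were in 0.225%, 8.11%, 4.58%, 15.9% and 12.4% of all windows.

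Irx3 was the most abundant Irx transcript in E9.25 limb buds. It was at 38.1, 27.7 and 27.2 TPM in WT, and at 30.4, 43.1, 45.5 and 31.4 TPM in Gli3-/-. Irx5 followed at 12.8, 10.9 and 8.14 TPM in WT and 8.07 to 13.4 TPM in Gli3-/-. The genotypes overlapped for both genes, and in each library Irx5 was below Irx3. Irx2 came next at 3.88, 2.09 and 3.76 TPM in WT, against 5.17, 8.80, 6.64 and 5.62 TPM in Gli3-/-. For Irx2 all 4 mutant libraries lay above all 3 WT libraries. Its TPM is less certain than that of the other Irx genes, since its deposited coverage was low for its FPKM, at a median of 0.553 of the ratio most genes shared. Irx1 was at 0.818 to 2.10 TPM in WT and 0.897 to 2.05 TPM in Gli3-/-, and Irx4 was at 0.414 to 0.964 TPM and 0.774 to 1.37 TPM. Irx6 was listed at 0 in every E9.25 library but Gli3-/- replicate 1, at 0.0335 TPM. In the order of WT levels (Irx3, Irx5, Irx2, Irx1, Irx4, Irx6), Irx1 overlapped both Irx2 and Irx4, while Irx3, Irx5 and Irx2 were separate from each other. In the mutants Irx5 and Irx2 also overlapped by TPM. With coverage scaled as TPM they did not, with Irx2 at 2.66 to 5.06 and Irx5 at 8.07 to 13.4.

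In anterior E10.5 WT buds the same order held at the top, and all neighbours in it were separate by TPM. With coverage scaled as TPM, Irx2 and Irx4 overlapped, at 2.15 to 3.20 and 1.36 to 2.23. Irx3 was at 65.7, 48.2, 67.4 and 53.5 TPM, and Irx5 at 21.4, 17.8, 22.9 and 18.8 TPM. Irx2 was at 3.88 to 5.55 TPM, Irx4 at 1.37 to 2.25 TPM, Irx1 at 0.287 to 0.830 TPM and Irx6 at 0 to 0.221 TPM. Irx4, a gene known for its role in the heart ventricle, had thus passed Irx1 in the order. In anterior E10.5 Gli3-/- buds the ranges of the top 3 genes overlapped. Irx3 was at 11.5, 6.77 and 2.24 TPM, Irx2 at 3.27, 2.58 and 2.37 TPM and Irx5 at 3.98, 2.73 and 0.803 TPM. By TPM, replicates 1 and 2 kept the order Irx3, Irx5, Irx2 while in replicate 3 Irx2 was the highest. With coverage scaled as TPM, Irx3 was the highest in replicate 3, at 2.23 against 1.61 for Irx2 and 0.803 for Irx5. On that scale Irx2 ran from 1.41 to 1.76, below every Irx3 value, and still overlapped Irx5. Irx4 was at 0.400 to 0.640 TPM, Irx1 at 0 to 0.318 TPM, and Irx6 was listed at 0 in all 3 mutant libraries, as Irx1 was in 1 of them.

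**Figure D1:**
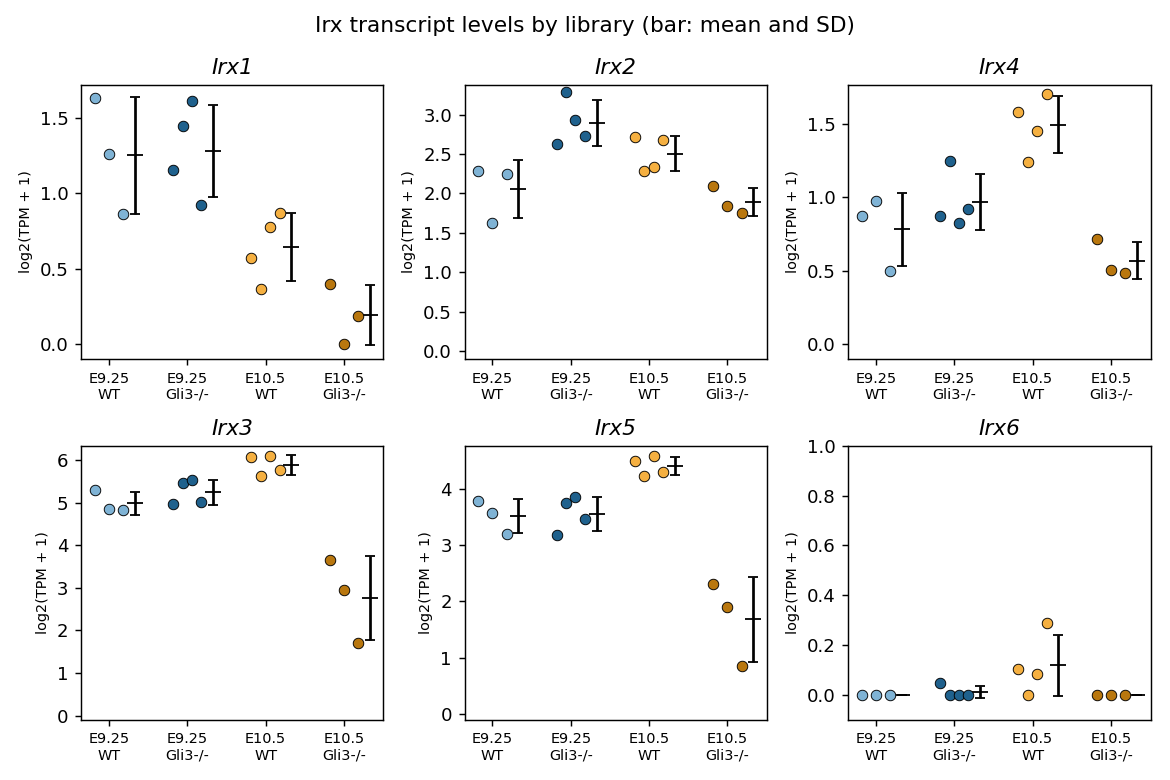
Each panel plots log2(TPM + 1) of 1 Irx gene in the 14 libraries, 1 point a library, in 4 groups, with the mean and SD as a bar beside the points; the vertical scales differ between panels. Irx3 and Irx5 were high in 3 groups and low in the anterior E10.5 Gli3-/- libraries, where Irx3 lay between 2.24 and 11.5 TPM.

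The E9.25 comparison asks whether loss of GLI3 alters these genes before HH signaling. No Irx gene passed the limma test. Of the 6 genes, 4 could be tested, and 0 of these 4 were called at an adjusted p under 0.05, with 1 (Irx2) at an unadjusted p under 0.05. Over all genes 0.136% were called, and 22% had an unadjusted p under 0.05. Irx2 was higher by 0.84 ± 0.24 (log2, SE) in Gli3-/-, with an adjusted p of 0.213. Its groups did not overlap, as was so for 13.3% of all genes tested, 9.97% higher and 3.36% lower. It passed only when the spread was estimated over all 14 libraries together, with an adjusted p of 0.0415, in a fit that called 4.86% of all genes. With the library labelled E9.25 WT replicate 2 left out, the Irx2 difference was 0.63 (adjusted p = 0.432), and those of Irx3, Irx5 and Irx1 were 0.20, 0.07 and 0.04 (adjusted p = 0.633, 0.897 and 0.956). Irx3 differed by 0.26 ± 0.19 (adjusted p = 0.386), Irx5 by 0.04 ± 0.22 (adjusted p = 0.912) and Irx1 by 0.03 ± 0.25 (adjusted p = 0.941). Their 95% intervals ran from −0.17 to 0.70, from −0.45 to 0.53 and from −0.53 to 0.60. The median over all genes tested was itself shifted by 0.23 towards Gli3-/-. Relative to that median Irx2 stood at 0.61, Irx3 at 0.04, Irx5 at −0.18 and Irx1 at −0.19, so the sign for Irx1 and Irx5 turned with the scaling. Irx4 was under the filter, and an exact two-sided permutation test, with 35 arrangements of the group labels, gave p = 0.457 for a difference of 0.19, which was 0.28 (p = 0.267) with the same library left out. The flank and lateral plate markers, which were higher in all 4 mutant libraries, moved in the direction of Irx2. So did those of intermediate mesoderm, at 6.46 to 9.91 TPM in WT and 14.4 to 23.0 TPM in Gli3-/-, and of endothelium, at 97.9 to 164 TPM and 177 to 255 TPM. Markers of surface ectoderm (244 to 381 TPM and 322 to 481 TPM) and heart (2.65 to 4.51 TPM and 4.27 to 8.05 TPM) had higher medians in Gli3-/-, with overlap. Those of neural tube went from 6.20 to 12.6 TPM in WT to 3.10 to 4.82 TPM in Gli3-/-. The part of these cell types in the Irx2 difference was not tested. In pooled tissue, more cells of a type and more RNA per cell cannot be told apart.

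At E10.5, the comparison asks what GLI3 loss does in the part of the bud that lies away from the source of HH signal. Irx3, Irx5 and Irx4 fell in the anterior Gli3-/- buds. Irx3 fell by 3.12 ± 0.37 (log2, SE), which is 8.70-fold lower on the log2(TPM + 1) scale, with an adjusted p of 0.00193. Irx5 fell by 2.71 ± 0.29, or 6.55-fold (adjusted p = 0.00115). Every mutant library lay below every WT library for both. Among 15654 genes tested, Irx5 ranked 67th and Irx3 95th by p. Irx4 fell by 0.92 ± 0.16 (adjusted p = 0.0112). It passed the filter only through the WT libraries, and with a pseudocount of 0.1 in place of 1 its difference was −1.72. Without anterior E10.5 Gli3-/- replicate 3 the Irx4 call was lost (−0.88, adjusted p = 0.0558). It was also lost in limma fits with a block for replicate number, by titles (adjusted p = 0.0897) or by tables (adjusted p = 0.0745). Irx2 was lower by 0.61 ± 0.16, with an adjusted p of 0.0610 and no overlap between the groups. It passed with sample quality weights (−0.65, adjusted p = 0.0271) and with no other alternative.

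Of the 4 Irx genes tested at E10.5, 3 were called, all lower, where 4.77% of all genes were called, 2.93% lower and 1.84% higher. Irx4 is among the 3 although it entered the test through WT alone, which leaves Irx3 and Irx5 of the 3 others tested. All 4 had groups that did not overlap, as had 19.3% of all genes, 11.5% lower and 7.87% higher. Irx1 and Irx6 were under the filter. An exact permutation test gave p = 0.0857 for Irx1 at a difference of −0.45 and p = 0.143 for Irx6 at −0.12, and the smallest p these 35 arrangements allow is 0.0286. With a pseudocount of 0.1 the differences were −1.58 for Irx1 and −0.79 for Irx6.

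For Irx3 and Irx5 the mutant libraries differed from each other more than the WT libraries did, while for Irx1, Irx2 and Irx4 the SD was smaller in the mutants. The SD of Irx3 on the log2 scale was 0.99 in Gli3-/- and 0.23 in WT, and that of Irx5 was 0.75 and 0.16. Replicate 3 was lowest for both genes. It also stood apart in its erythroid RNA, with 6 markers summing to 38221 TPM against 11421 to 15830 TPM in the other 6 E10.5 libraries. Without it Irx3 was still lower by 2.59 (adjusted p = 0.000897) and Irx5 by 2.29 (adjusted p = 0.000625). The 9 limb mesenchyme markers summed to 800 to 841 TPM in Gli3-/- and 1093 to 1365 TPM in WT, so their sum was lower along with the Irx genes. Not every marker was lower. Prrx1 was at 170 to 181 TPM in Gli3-/- and 223 to 302 TPM in WT, but Tbx5 was at 56.3 to 76.1 TPM and 47.1 to 64.8 TPM. Msx2, also listed, had a mean log2(TPM + 1) of 3.08 in Gli3-/- and 5.34 in WT. The sum for intermediate mesoderm was lower too, at 1.22 to 2.17 TPM and 2.72 to 3.30 TPM. The part of these cell types in the Irx differences was not tested. The 13 surface ectoderm markers summed to 393 to 440 TPM in Gli3-/- and 285 to 383 TPM in WT, so they did not fall with the Irx genes. Neural tube, another site of Irx transcription, had 13 markers summing to 8.40 to 10.2 TPM in WT and 9.60 to 15.5 TPM in Gli3-/-, with 1 of the 13 at 1 TPM or more in every library of both groups. Of the 13, 5 were at 0 throughout WT (Olig2, Neurog1, Dbx1, Foxa2 and Nkx2-2) and the same 5, Neurog2 and Nkx6-1 throughout Gli3-/-.

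**Figure D2:**
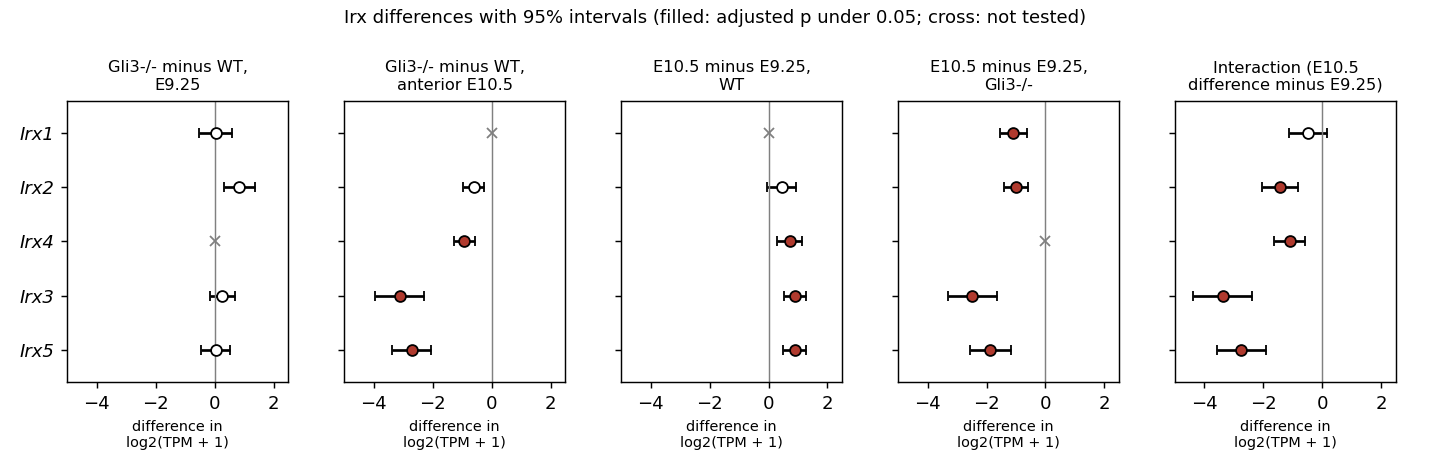
Each panel plots, for 1 comparison, the difference in log2(TPM + 1) of 5 Irx genes with its 95% interval; filled points passed an adjusted p of 0.05, open points did not, and a cross marks a gene under the filter. No E9.25 genotype difference passed, while Irx3 and Irx5 reached −3.12 and −2.71 at E10.5.

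From E9.25 to anterior E10.5 in WT, Irx3, Irx5 and Irx4 rose. Irx3 rose by 0.90 ± 0.16 (adjusted p = 0.00306), Irx5 by 0.88 ± 0.17 (adjusted p = 0.00393) and Irx4 by 0.71 ± 0.19 (adjusted p = 0.0145), each with no overlap between stages. Irx4 passed the filter only through the E10.5 libraries, where its level was high, and with a pseudocount of 0.1 its rise was 1.26. Leaving Irx4 aside, Irx3 and Irx5 were called and Irx2 was not. Limb mesenchyme markers went from 839 to 989 TPM at E9.25 to 1093 to 1365 TPM at E10.5, and those of somite and muscle progenitors from 23.1 to 26.7 TPM to 78.4 to 94.2 TPM, and their part in these rises was not tested. In this comparison 48.7% of all genes were called, 38.1% higher, and 53.5% had groups that did not overlap, 41.5% higher, and the median gene was higher by 0.34, so 3 calls among 4 Irx genes stood against a high background. The share of genes called higher depended on the scaling, at 17.3% with quantile normalization (19.7% lower) and 20.6% with size factors (21.2% lower). Relative to that median the differences were 0.57 for Irx3, 0.54 for Irx5 and 0.37 for Irx4. With quantile normalization Irx3 alone kept its call, and with size factors Irx4 lost its call (0.52, adjusted p = 0.0514). With the library labelled E9.25 WT replicate 2 left out, the differences were 0.83 for Irx3, 0.91 for Irx5 and 0.81 for Irx4, all called. Irx2 was higher by 0.45 ± 0.21 (adjusted p = 0.109) and overlapped between stages, and by 0.23 (adjusted p = 0.313) with that library left out, and it turned to −0.093 with quantile normalization. Irx1 went the other way, lower by 0.61 with an exact permutation p of 0.0571, and by 0.60 with that library left out. It reached p = 0.0286 in the exact permutation test with size factors (−0.77), and it was called in 1 model of all 14 libraries (adjusted p = 0.0297). Flank and lateral plate markers were also lower, going from 25.2 to 62.1 TPM to 1.73 to 4.10 TPM. So were those of intermediate mesoderm, from 6.46 to 9.91 TPM to 2.72 to 3.30 TPM, and of heart, from 2.65 to 4.51 TPM to 0.355 to 1.34 TPM. The part of these cell types in the Irx1 difference was not tested.

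Over the same interval in Gli3-/-, Irx3, Irx5, Irx1 and Irx2 fell. Irx3 fell by 2.48 ± 0.37 (adjusted p = 0.000911), Irx5 by 1.87 ± 0.31 (adjusted p = 0.0017), Irx1 by 1.09 ± 0.20 (adjusted p = 0.00309) and Irx2 by 1.00 ± 0.19 (adjusted p = 0.0034). These are all 4 Irx genes tested, in a comparison in which 25% of all genes were called, 9.17% lower, with a median gene of 0.06. None of the 4 overlapped between stages, as was so for 35.7% of all genes, 13.4% lower. Irx1 is among the 4 although it passed the filter only through the E9.25 libraries, which leaves Irx2, Irx3 and Irx5, all the others tested. With a pseudocount of 0.1 the Irx1 difference was −2.81. Irx4 was under the filter and lower by 0.40, with no overlap and an exact permutation p of 0.0286, the smallest possible. Flank and lateral plate markers went from 80.3 to 221 TPM to 1.71 to 2.13 TPM over this interval. Those of intermediate mesoderm went from 14.4 to 23.0 TPM to 1.22 to 2.17 TPM, and of endothelium from 177 to 255 TPM to 120 to 148 TPM. Heart markers went from 4.27 to 8.05 TPM to 0.398 to 0.779 TPM. Markers of neural tube went up, from 3.10 to 4.82 TPM to 9.60 to 15.5 TPM. So did those of somite and muscle progenitors, from 19.0 to 28.2 TPM to 85.1 to 119 TPM. The part of these cell types in the falls was not tested. The calls of Irx1, Irx2, Irx3 and Irx5 held in each alternative in which the gene could be tested. Irx1 could be tested in 4 of the 7 fits with 1 library left out. The stage and genotype comparisons share libraries and are not independent of each other.

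The interaction term tests whether the genotype difference itself changed between the stages. It was called for Irx3 (−3.39 ± 0.46, adjusted p = 0.00151), Irx5 (−2.75 ± 0.39, adjusted p = 0.00192), Irx2 (−1.45 ± 0.29, adjusted p = 0.0177) and Irx4 (−1.11 ± 0.24, adjusted p = 0.0268). Irx4 entered this fit mainly through anterior E10.5 WT, with 1 TPM or more in all 4 of those libraries and in 1 other, and with a pseudocount of 0.1 its term was −2.11. That is 4 of the 5 Irx genes tested, where 2.13% of all genes were called, 1.65% lower, and the median gene was at −0.24. Leaving Irx4 aside, Irx2, Irx3 and Irx5 were called and Irx1 was not. For Irx1 the term was −0.48 ± 0.30 (adjusted p = 0.347), and −1.64 (adjusted p = 0.234) with a pseudocount of 0.1. The Irx2 term joined a higher mutant level at E9.25 with a lower one at E10.5, neither of which passed on its own, whereas Irx3 and Irx5 differed by 0.26 and 0.04 at E9.25 and by −3.12 and −2.71 at E10.5. Without anterior E10.5 Gli3-/- replicate 2 or replicate 3, the terms of Irx2 (adjusted p = 0.0507 and 0.0654) and Irx4 (0.0677 and 0.0933) were lost and those of Irx3 and Irx5 kept. The Irx4 term was lost in 7 of the 14 fits with 1 library left out, the others being without E9.25 WT replicate 3, E9.25 Gli3-/- replicate 2 or anterior E10.5 WT replicate 1, 3 or 4, and also with quantile normalization and with size factors. With the library labelled E9.25 WT replicate 2 left out, all 4 kept their calls.

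Irx3 and Irx5 followed each other from library to library. With no pseudocount, the log2 ratio of Irx5 to Irx3 TPM ran from −1.74 to −1.34 in E9.25 WT and from −1.91 to −1.64 in E9.25 Gli3-/-. It ran from −1.62 to −1.44 in anterior E10.5 WT and from −1.53 to −1.31 in anterior E10.5 Gli3-/-, the group in which both genes were low. On the log2(TPM + 1) scale the ratio at E10.5 was higher by 0.41 in Gli3-/- (exact permutation p = 0.0286, the smallest possible, adjusted p = 0.0857 over 3 ratio tests). With a pseudocount of 0.1 that difference was 0.14 (exact permutation p = 0.114). At E9.25 it was −0.22 (exact permutation p = 0.0857), and −0.13 (exact permutation p = 0.267) with the library labelled E9.25 WT replicate 2 left out. In the IrxA cluster, the ratio of Irx2 to Irx1 at E9.25 was higher by 0.81 in Gli3-/- (exact permutation p = 0.0571), and by 0.59 (exact permutation p = 0.2) with that library left out. At E10.5 the ratio of Irx2 to Irx1 differed by −0.16 (exact permutation p = 0.4), a test left out of the adjustment above.

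**Figure D3:**
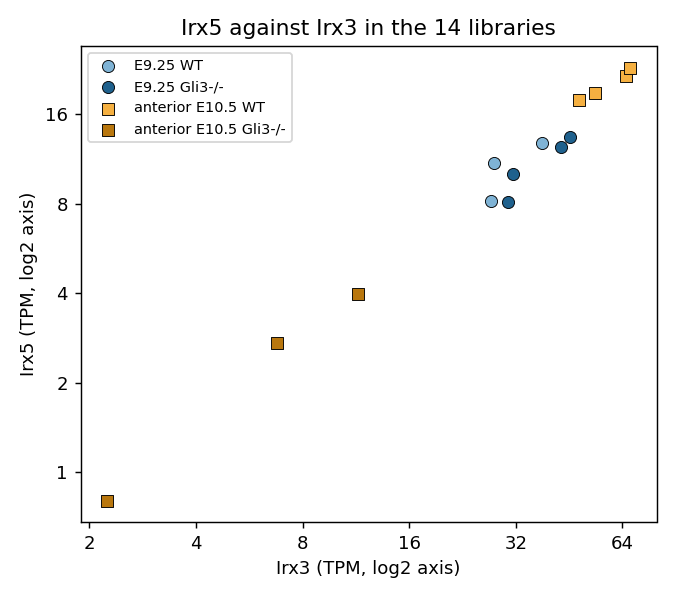
Irx5 is plotted against Irx3 in TPM on log2 axes, 1 point for each of the 14 libraries, with shape and shade for the 4 groups. The points keep near 1 line from 67.4 TPM of Irx3 in anterior E10.5 WT to 2.24 TPM in anterior E10.5 Gli3-/- replicate 3.

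Among 16367 other genes, likeness was taken as the root mean square difference between profiles of log2(TPM + 1) over the 14 libraries, each less its own mean. It is a description over libraries that share stage and genotype. Nearest genes were sought only for Irx genes over the filter with an SD of at least 0.5 over the 14 libraries. Irx2, Irx4 and Irx6 were therefore not searched. The gene nearest to Irx3 was Irx5, at 0.25, and the gene nearest to Irx5 was Irx3. The next for Irx3 were Msx2 (0.48), which encodes a homeodomain factor of the BMP response, Crnde (0.52), Hoxc6 (0.52) and Hoxb3 (0.56). For Irx5 they were Crnde (0.42), Msx2 (0.43), Hoxc6 (0.45) and Pkdcc (0.50). Irx4, of the other cluster, was 53rd in likeness to Irx5 and 85th to Irx3. Irx1 had a flatter profile, with an SD of 0.52 over the 14 libraries against 1.26 for Irx3. Nearest to it were Dlx4 (0.18), Reep1 (0.19), Slc18a1 (0.22), Dubr (0.23) and Abhd11 (0.23), and no Irx gene was among its first 5.

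The RNAs that run against the IrxB genes also fell at E10.5. Crnde was at 10.7, 6.07, 12.2 and 7.81 TPM in anterior E10.5 WT and at 1.97, 1.18 and 0.948 TPM in Gli3-/-, a fall of 2.09 ± 0.23 (adjusted p = 0.00136). Irx3os was at 1.66 to 2.78 TPM in WT and at 0 to 0.344 TPM in Gli3-/-, a fall of 1.51 ± 0.17 (adjusted p = 0.00167), though it passed the filter only through the WT libraries. With a pseudocount of 0.1 the Irx3os difference was −3.55 and its interaction term −3.82. Both had called interaction terms, at −2.49 (adjusted p = 0.0026) and −1.66 (adjusted p = 0.0152). Irx3os was at 1 TPM or more in 4 of 4 anterior E10.5 WT libraries and in 2 of the other 10, and its term lost its call without anterior E10.5 Gli3-/- replicate 3 (−1.57, adjusted p = 0.0555). The use of strand in counting is not given in the sources used here, so reads of Irx3os cannot be told from those of Irx3 where the genes overlap. As for Irx2, the coverage of Crnde and Irx3os was low for their FPKM, at a median of 0.0729 and 0.390 of the ratio most genes shared. With coverage in place of TPM no call of Irx1 to Irx6 was gained or lost. On that scale Crnde and Irx3os were under the filter, so their calls could not be checked in this way.

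The other genes near the clusters were called at about the share of all genes at E10.5. Of 32 listed genes within 1 Mb of IrxB, 12 were tested at E10.5, and Crnde and Irx3os were the only ones called, where 4.77% of all genes were. Irx3os entered the test through WT alone, which leaves Crnde as the only call among the others tested. Fto, whose introns are known to hold enhancers that reach Irx3, differed by −0.23 ± 0.09 (adjusted p = 0.205). Mmp2, a matrix protease beyond Irx6, differed by 0.12 ± 0.11 (adjusted p = 0.631). Of 29 listed genes within 1 Mb of IrxA, 13 were tested, and Ndufs6, a subunit of respiratory complex I, was the only one called, at −0.29 ± 0.07 (adjusted p = 0.0408), a call lost when any 1 library was left out. Between the WT stages, 8 of 11 IrxB neighbours tested rose (Crnde, Irx3os, Rbl2, Mmp2, Lpcat2, Fto, Chd9 and Gm3235) and Gm3272 fell, where 38.1% of all genes rose and 10.6% fell. Among them Fto rose by 0.72 (adjusted p = 0.00591) and Mmp2 by 1.04 (adjusted p = 0.000463). The Crnde call held in 2 of 7 fits with 1 library left out (it was lost without E9.25 WT replicate 2 or 3 or anterior E10.5 WT replicate 1, 3 or 4), and it was also lost with quantile normalization (0.33, adjusted p = 0.299), with size factors and with no filter. Irx3os is counted among the 8 although it passed the filter through the E10.5 libraries, with 1 TPM in 1 of 3 E9.25 WT libraries and 4 of 4 at E10.5. It lost its call without E9.25 WT replicate 3 or anterior E10.5 WT replicate 1. Irx3os, Gm3235, Chd9 and Rbl2 lost theirs with quantile normalization, as did Brd9 near IrxA. With 1 library left out, the Gm3235 call held in 3 of 4 fits and those of Chd9 and Gm3272 in 6 of 7. With the other alternatives, the Gm3235 call held in 5 of 8 and those of Chd9 and Brd9 in 7 of 9. Of 13 IrxA neighbours, 4 rose (Slc12a7, Nkd2, Tert and Brd9) and 2 fell (Mrpl36 and Rpl9-ps4), close to the share of all genes. In Gli3-/-, where 15.8% of all genes rose and 9.17% fell, 3 of 10 IrxB neighbours rose (Mmp2, Lpcat2 and Chd9) and Crnde fell, while 3 of 13 IrxA neighbours rose (Slc12a7, Nkd2 and Tert) and Mrpl36 fell. Of these Gli3-/- calls, that of Tert held in 3 of 7 fits with 1 library left out, and those of Slc12a7, Mrpl36 and Chd9 in 5 of 7.

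**Figure D4:**
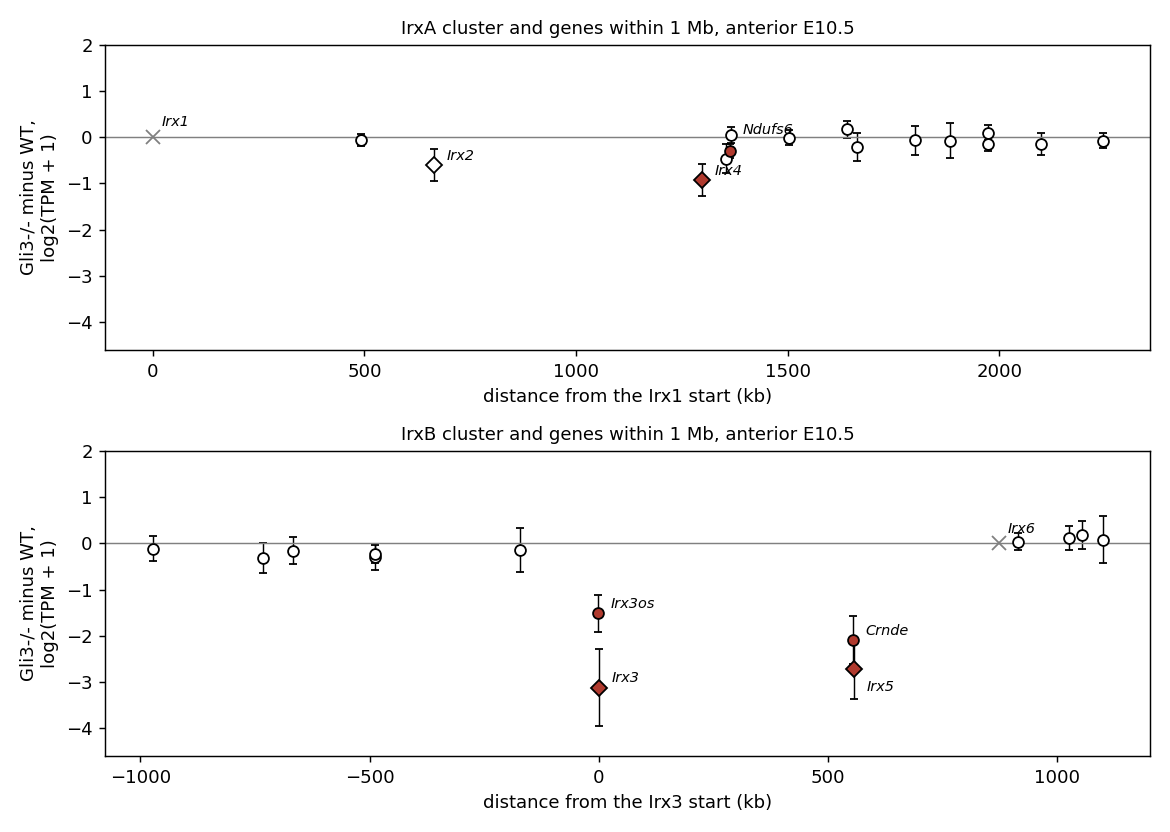
The genotype difference in anterior E10.5 buds is plotted against distance in kb from the start of Irx1 (upper panel) or Irx3 (lower panel), with 95% intervals; diamonds are Irx genes, circles their neighbours within 1 Mb, filled symbols passed an adjusted p of 0.05 and crosses were not tested. In the lower panel Irx3, Irx3os, Crnde and Irx5 lie between −3.12 and −1.51, and the other genes near 0.

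Of 11 other TALE homeobox genes examined, all were tested at E10.5 and 4 fell in Gli3-/-, where 2.93% of all genes fell. These were Meis1 (−1.40, adjusted p = 0.000586), Meis2 (−1.25, adjusted p = 0.00119), Meis3 (−1.28, adjusted p = 0.00309) and Pbx3 (−0.53, adjusted p = 0.00787). The Pbx3 call was lost in the limma fit with a block for replicate number by titles (adjusted p = 0.0697). MEIS proteins mark the proximal limb bud and PBX proteins are their partners. All of these 4 differences were smaller in size than those of Irx3 and Irx5. The median of the 11 was −0.16, beside −0.02 over all genes tested. The same 4 genes had called interaction terms, from −2.29 for Meis3 to −0.86 for Pbx3, where 2.13% of all genes were called. The Pbx3 term lost its call without anterior E10.5 Gli3-/- replicate 2 or 3. At E9.25, limma called 0 of the 10 tested, with 6 at an unadjusted p under 0.05, as had 22% of all genes. Between the WT stages, Pbx2, Pbx3, Pbx4, Pknox1, Tgif1 and Mkx rose, where 38.1% of all genes rose, and Pbx2 turned to −0.019 with size factors. With 1 library left out, the Pknox1 call held in 2 of 7 fits and that of Pbx2 in 3 of 7. In Gli3-/-, Meis1, Meis2, Meis3 and Pknox2 fell between stages and Mkx rose, where 9.17% of all genes fell and 15.8% rose. Of the anterior limb bud genes listed, 6 of 7 tested fell at E10.5, and of the posterior and HH target genes, 9 of 13 rose and 1 fell, where 1.84% of all genes rose.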

How the data were processed

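Forelimb buds were collected as limb pairs, and RNA libraries were made with the NEBNext Ultra II kit and sequenced as single reads of 100 bases. Per the paper, RNA-seq reads were aligned with HISAT2. The tools listed with the samples instead include Bowtie2 2.2.5, without HISAT2, and the build listed is mm10. The HISAT2 version, the annotation and the tool that made the gene tables are not given in the sources used here. The deposited gene tables hold coverage (a signal), FPKM and TPM for each library, with no counts, so no count model was used. Nothing in the labels says that replicates were separate litters, so p-values measure the spread between these pools. Rows that shared a gene identifier were summed. limma 3.58.1 in R 4.3.3 was fitted with a trended prior to log2(TPM + 1) in the libraries compared, with a filter of 1 TPM in at least 3 libraries and Benjamini-Hochberg adjustment over all genes tested. Genes under the filter, and ratios, were tested by exact permutation. The procedure was tested on simulated data. The Irx members, gene lists and marker lists were chosen with earlier results of these data known. Irx1 to Irx6 were named whatever their values; neighbours and TALE genes were named where called. A gene of the TALE list is not reported here. Replicate numbers, which in anterior E10.5 Gli3-/- differ between titles and tables, were not taken to pair libraries: correlations of same-numbered libraries ran from −0.20 to −0.16 at E9.25, and at E10.5 from −0.18 to 0.15 by title and from 0.05 to 0.32 by table.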

Additional observations from a re-analysis of the deposited data

Results flagged for a closer look

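The effect of Gli3 loss differed between anterior E10.5 and E9.25 for 4 Irx genes by the interaction term of the limma fit, by −3.39 for Irx3, −2.75 for Irx5, −1.45 for Irx2 and −1.11 for Irx4. Irx6 was set apart in E9.25 Gli3-/- by 1 library, replicate 1, whose gap to the others made up the whole range of the group (a share of 1), since the other 3 were listed at 0 and it was at 0.0335 TPM. The cutoff used is passed by chance in about 1 in 20 groups of continuous values, a rate that does not apply where 3 libraries are at 0.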

How the results depend on the processing

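Irx3 and Irx5 kept their E10.5 genotype calls, Gli3-/- stage calls and interaction calls in every alternative run. With 1 model of all 14 libraries, 1 Irx gene (Irx2) was called at E9.25 in place of 0, and 796 of all genes in place of 20. With quantile normalization, 1 was called between the WT stages in place of 3, with Irx5 at 0.46 (adjusted p = 0.0591) and Irx4 at 0.19 (0.480), and with 1 model of all 14 libraries 4 were, Irx1 included. Leaving out 1 library moved the count of interaction calls between 2 and 4. The Irx5 to Irx3 ratio at E10.5 was 0.14 with a pseudocount of 0.1 and ran from 0.29 to 0.53 with 1 library left out, where the splits left cannot reach a p of 0.05. With the replicate block, the Irx4 difference at E10.5 lost its call, at −0.86 (adjusted p = 0.0897) by the numbers of the titles and −0.90 (adjusted p = 0.0745) by those of the tables, while Irx3 was at −3.16 and −3.06 and Irx5 at −2.74 and −2.68, all called. At E9.25 the block gave Irx2 at 0.90 (adjusted p = 0.423). The block by titles also ended the Pbx3 call at E10.5 (adjusted p = 0.0697). Some signs turned. At E9.25, Irx1 was at −0.25 with quantile normalization, −0.11 with size factors and −0.027 with quality weights, and Irx5 at −0.24 and −0.18 with the former pair. With 1 library left out, Irx1 ran from −0.16 to 0.22 and Irx5 from −0.12 to 0.18. Between WT stages, Irx2 was at −0.093 with quantile normalization and Pbx2 at −0.019 with size factors. The Irx4 interaction call was lost with quantile normalization (adjusted p = 0.110) and with size factors (0.0527), and in 7 of 14 fits with 1 library left out. Over all genes, the count called at E9.25 was as low as 0, and at E10.5 it ran from 164 to 1356 against 747. For the interaction it ran from 150 to 1433 against 348, and between the Gli3-/- stages from 2129 to 6520 against 3853. The balance of higher to lower calls also moved with quantile normalization, from 5885 and 1635 to 2668 and 3050 between the WT stages, from 2437 and 1416 to 2342 and 2186 between the Gli3-/- stages, from 78 and 270 to 164 and 181 for the interaction, and from 16 and 4 to 17 and 13 at E9.25. TPM carries no counts, so precision for Irx1, Irx4 and Irx6, at 2.25 TPM or less in every library, rests on few reads where they are lowest.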
